A study of Mus musculus with 2 samples.

Results

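Olfactory receptor arrays are long stretches of the mouse genome filled with genes for odorant receptors, and they were examined here in the list of DNaseI-accessible sites of 1 lymphoma. The arrays were given as 3 windows of the mm9 genome: chr2:85200000-89900000 (4.7 Mb), chr9:37600000-39900000 (2.3 Mb) and chr7:111100000-114300000 (3.2 Mb). A site belonged to an array if any base of it lay in the window. By this rule 44 of the 53593 sites of the list were members: 2 on chromosome 2, 2 on chromosome 9 and 40 on chromosome 7. The windows were set by where the genes lie, though earlier results of these data were known when they were chosen. Each array was set against the 2 Mb on either side of it, which held 299 sites in all.

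The tumour, called T6, came from an Eμ-myc mouse of strain C57/Bl6, in which the heavy-chain enhancer of the immunoglobulin locus drives the Myc oncogene in B lineage cells. It was Arf-/- and Trp53+/+, and it was untreated. Cells were pressed out of lymph nodes and not purified, so other lymph node cells could be present, and markers of B cells and other cells could not be placed on the sites here. The series has 2 libraries of this tumour, and the DNaseI list was analysed while the input library was not analysed here. With 1 library and no replicate there is no test between groups and no p-value. Intervals are at 95% and express counting error alone, and sites near each other do not vary independently. The list gives the position of each site and no read count, so neither depth nor the signal at a site is known. A stretch without a site is one in which none was listed, which is not a measurement of no cutting.

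Odorant receptors are G protein-coupled receptors of the olfactory sensory neuron, and their genes, named Olfr in the mouse, form the largest gene family of mammals. Each mature neuron uses a single allele of a single receptor gene, and the other copies are held in compact, silent chromatin. Receptor genes have a coding part without introns and are packed in tandem, with few genes of other kinds between them. The family is not part of the known programme of B cells, and its arrays are a common example of inactive chromatin outside the nose.

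In gene order, the arrays of chromosomes 2 and 9 were almost pure, and that of chromosome 7 was mixed. No mm9 annotation was used here, so genes were taken by their order in a RefSeq table of another build, GRCm38.p6, and none was placed on a site. The stretch on chromosome 2 between Lrrc55 and Ptprj held 222 Olfr genes, from Olfr987 to Olfr1274, and 3 other protein-coding genes. These were Fads2b, Pramel7 and Pramel6, and they divided the receptor genes into runs of 6, 93 and 123. On chromosome 9, between Panx3 and Zfp202, there were 95 Olfr genes, from Olfr160 to Olfr986, in runs of 40, 29, 25 and 1, and the 3 others were Vwa5a, AW551984 and Tmem225. The chromosome 7 array was taken as the genes between Hbb-y, an embryonic beta-like globin, and Nlrp14, an assignment that rests on general knowledge of the locus. It held 76 Olfr genes, from Olfr66 to Olfr715b, and 39 other genes. Together these are 393 of the 1110 protein-coding Olfr genes of the table (35.4%), with a further 118 Olfr pseudogenes or non-coding entries among them. Genes at the edges of a stretch may lie outside the mm9 window.

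The 39 other genes of the chromosome 7 stretch stood in blocks between the runs of receptors. After a run of 16 Olfr genes came a short block that ends with Olfm5, and after 2 more receptors a block of Trim genes from Trim6 to Trim30d. Trim proteins are E3 ubiquitin ligases, several of which restrict viruses. A run of 11 receptors, the deubiquitinase genes Usp17le, Usp17lb and Usp17la, and a run of 24 receptors followed. Next stood a block from Fam160a2 to Gm1966 that includes genes used in most cells: Ilk, an integrin-linked kinase, Taf10, a subunit of the general transcription factor TFIID, Mrpl17, a mitochondrial ribosomal protein, and Tpp1, a lysosomal protease. A last run of 23 receptors closed the stretch. The genes next to the stretches differed in the same way. Of the 50 protein-coding genes next to the stretch on each side, none was an Olfr gene on chromosomes 2 and 9, while on chromosome 7 there were 43 before it and 43 after it. By gene order, the surroundings of the chromosome 7 array are therefore no receptor-free comparison.

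The starts of receptor genes are poor in CG dinucleotides, and the sequences below show this beside 2 other genes of the chromosome 7 stretch. In each array the first receptor gene was taken that had a sequence in the RefSeq table used. Its gene model also had to be over 1000 bp or not a multiple of 3 in length. Shown are the 250 bases before the start of these genes, then of Trim30a and Ilk. They are from RefSeq, build GRCm38.p6, run 5′ to 3′ on the strand of the gene, and have each CG in capitals. Their coordinates cannot be set against the mm9 sites.
Olfr994 (GRCm38.p6 chr2:85430828-85431077, minus strand): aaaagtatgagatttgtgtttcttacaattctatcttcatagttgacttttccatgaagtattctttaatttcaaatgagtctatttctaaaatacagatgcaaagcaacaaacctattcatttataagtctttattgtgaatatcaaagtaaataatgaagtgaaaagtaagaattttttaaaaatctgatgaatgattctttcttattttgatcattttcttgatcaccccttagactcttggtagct
Olfr875 (GRCm38.p6 chr9:37772387-37772636, plus strand): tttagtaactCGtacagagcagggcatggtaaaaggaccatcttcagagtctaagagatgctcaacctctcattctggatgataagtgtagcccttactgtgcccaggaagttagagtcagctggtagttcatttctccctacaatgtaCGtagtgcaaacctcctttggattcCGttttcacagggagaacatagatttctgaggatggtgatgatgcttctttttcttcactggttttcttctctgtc
Olfr64 (GRCm38.p6 chr7:103894472-103894721, minus strand): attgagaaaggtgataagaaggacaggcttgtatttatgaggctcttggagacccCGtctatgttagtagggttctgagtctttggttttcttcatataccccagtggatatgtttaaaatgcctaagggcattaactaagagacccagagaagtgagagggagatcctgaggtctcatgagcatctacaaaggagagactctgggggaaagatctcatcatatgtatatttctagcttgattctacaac
Trim30a (GRCm38.p6 chr7:104465194-104465443, minus strand): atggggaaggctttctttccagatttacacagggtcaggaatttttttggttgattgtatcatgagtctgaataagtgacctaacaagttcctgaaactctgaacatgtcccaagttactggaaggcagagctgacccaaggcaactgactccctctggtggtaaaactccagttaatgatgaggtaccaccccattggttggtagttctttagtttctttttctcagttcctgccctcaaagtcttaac
Ilk (GRCm38.p6 chr7:105736340-105736589, plus strand): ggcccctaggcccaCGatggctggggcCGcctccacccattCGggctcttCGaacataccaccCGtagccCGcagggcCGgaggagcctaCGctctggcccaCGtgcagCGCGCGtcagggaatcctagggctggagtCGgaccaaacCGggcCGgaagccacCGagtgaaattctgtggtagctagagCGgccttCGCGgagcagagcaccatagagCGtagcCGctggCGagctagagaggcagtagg
Olfr994 and Trim30a had no CG in these 250 bases, Olfr64 had 1 and Olfr875 had 3, against 22 in Ilk. The share of G and C was 26.4% for Olfr994, 43.6% for Olfr875 and 42% for Olfr64, and 43.2% for Trim30a and 66.4% for Ilk. Trim30a was thus within the range of the 3 receptor genes in both measures.

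The low CG content held across the receptor genes that had a sequence. A sequence of 300 bases, from 250 before to 50 after the start, was present for 330 of the 393 Olfr genes. For 258 of the 393 the gene model was at most 1000 bp and a multiple of 3 in length, as for a coding part alone, so that the bases before it may be intron and not promoter. The values here are from the 121 others with a sequence, called longer models. This set takes in any model over 1000 bp or not a multiple of 3 in length. Some of its models may thus still be little more than a coding part. Their median was 1 CG per 300 bases (quartiles 0 and 2), and 31.4% had none (exact interval 23.3 to 40.5%). None of the 121 had 10 or more CGs, for which the interval reaches 3.0%, against 60.4% of the 16548 protein-coding genes outside the family (59.7 to 61.2%). The 209 coding-only models also had a median of 1. Of the 29 other genes of the chromosome 7 stretch with a sequence, 8 had 10 or more: Cckbr, Smpd1, Apbb1, Arfip2, Timm10b, Ilk, Taf10 and Mrpl17, with 15 to 35 each. All 8 stood in the block from Fam160a2 to Gm1966. The genes from Trim6 to Trim30d ranged from 0 to 8.

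**Figure D1:**
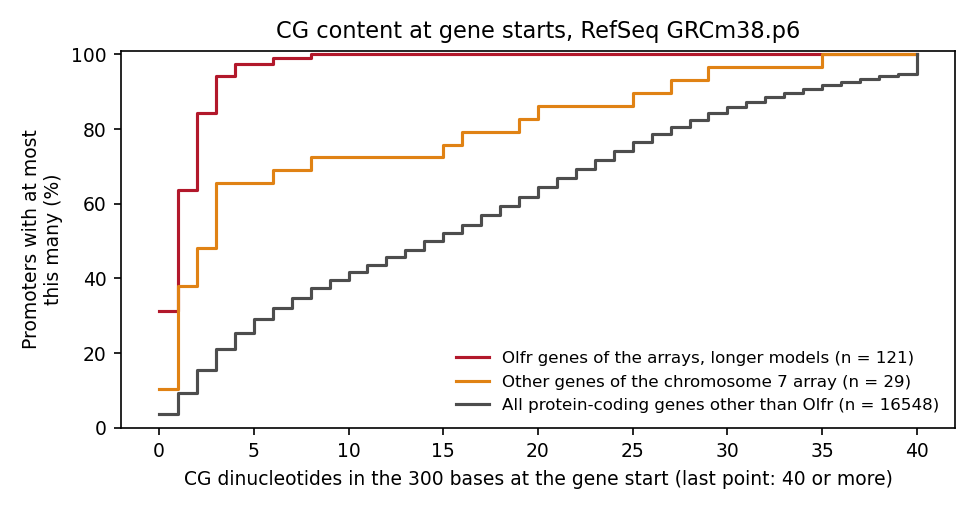
Cumulative share of genes (vertical axis, %) by the number of CG dinucleotides in the 300 bases around the gene start (horizontal axis, last point 40 or more), for 121 Olfr genes of the arrays with longer gene models, 29 other genes of the chromosome 7 stretch and 16548 protein-coding genes outside the family. The curve of the receptor genes is complete at 8, while 60.4% of the genes outside the family lie at 10 or more.

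Short motifs were counted on both strands of the same 300 bases, as letters only and not as binding sites. The homeodomain core TAATTA was present in 16.5% of the 121 receptor genes (10.4 to 24.4%) and in 3.88% of the genes outside the family (3.59 to 4.19%). TATAAA was present in 42.1% (33.2 to 51.5%) and in 11.8% (11.3 to 12.3%). Both words hold no G or C, and the receptor starts had a median of 34.7% G and C against 57% outside the family. Whether base composition bears on the share of any word counted here was not tested. The ETS word CCGGAAG was found in none of the 121 (up to 3.0%) and in 12.6% of the others, and it holds a CG. The EBF palindrome, TCCC and GGGA with 2 bases of any kind between them, is of interest because Ebf factors act in both B cells and olfactory neurons, and it was in none of the 121 and in 0.967% of the others. At that rarity the 2 shares cannot be told apart. The E box CAGGTG was in 8.26% of receptor genes (4.03 to 14.7%), against 19.6% of the others (19.0 to 20.3%). The E box CACGTG, which holds a CG, was in 4.96% (1.84 to 10.5%), against 8.23% (7.82 to 8.66%). For CACGTG the intervals overlap, so its 2 shares cannot be told apart.

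Accessible sites were nearly missing from the arrays of chromosomes 2 and 9, and the array of chromosome 7 was not poorer in sites than its flanks. The chromosome 2 array held 2 sites in 4.7 Mb, or 0.426 per Mb (exact Poisson interval 0.0515 to 1.54). The flank before it held 59 sites, or 29.5 per Mb (22.5 to 38.1), and the flank after it 105, or 52.5 per Mb (42.9 to 63.6). The array therefore had 0.0104 times the density of both flanks together (0.00125 to 0.0381), and neither flank's interval overlapped that of the array.

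The chromosome 9 array held 2 sites in 2.3 Mb, or 0.87 per Mb (0.105 to 3.14). Its flanks held 33 and 61 sites, or 16.5 per Mb (11.4 to 23.2) and 30.5 per Mb (23.3 to 39.2). The ratio to both flanks was 0.0370 (0.00442 to 0.137). Here too the array lay below each flank by more than counting error. Over chromosomes 2 and 9 together there were 4 sites in 7 Mb against 258 in 8 Mb of flanks, a ratio of 0.0177 (0.00479 to 0.0459).

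On chromosome 7 the array held 40 sites, or 12.5 per Mb (8.93 to 17.0). The flank before it had 17.5 per Mb (12.2 to 24.3, 35 sites), and the ratio of array to that flank was 0.714 (0.442 to 1.16), which includes no difference. The flank after it had 3 per Mb (1.10 to 6.53, 6 sites), and the array stood at 4.17 times that value (1.76 to 12.02). Against both flanks the ratio was 1.22 (0.769 to 1.93). This value depended on how far the flanks reached: it was 2.27 with flanks of 1 Mb and 0.372 with flanks of 5 Mb. A near absence of listed sites thus held for the windows of chromosomes 2 and 9 and did not hold for the chromosome 7 window as a whole. Whether the chromatin of any window was closed was not measured. That the 3 arrays pooled had 4.31 sites per Mb (3.13 to 5.79), against 21.96 over all autosomes, hides this split.

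**Figure D2:**
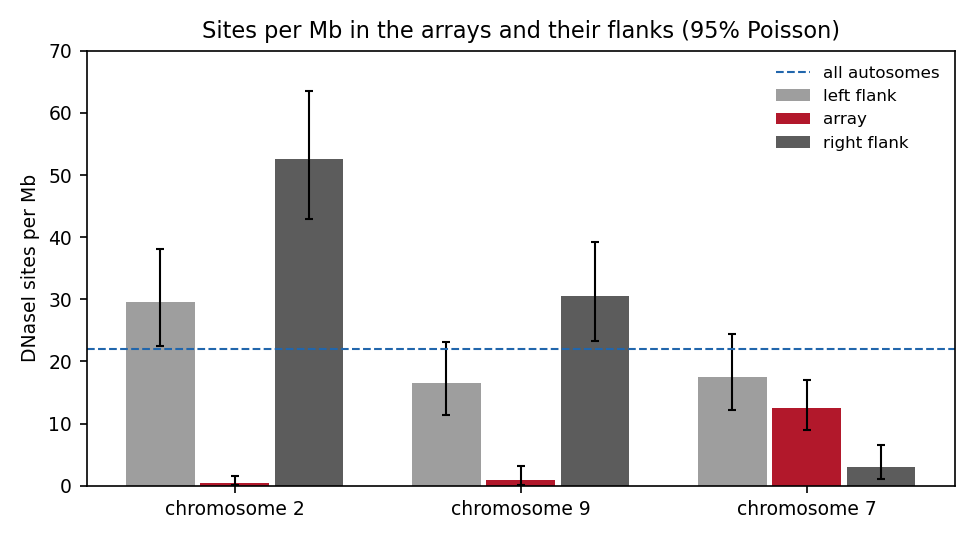
DNaseI sites per Mb (vertical axis) in each array window and in the 2 Mb before and after it, with exact 95% Poisson intervals as error bars; the dashed line is the density over all autosomes from the first to the last site. The arrays of chromosomes 2 and 9 lie at 0.426 and 0.87 per Mb below both flanks, and that of chromosome 7 at 12.5 lies between its flanks.

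So few sites in so long a window were uncommon on the autosomes for chromosome 2 and less so for chromosome 9. When the autosomes were tiled with windows of 4.7 Mb, 15 of 502 (2.99%) held at most 2 sites, and the median window held 82. With windows of 2.3 Mb, 138 of 1034 (13.3%) held at most 2, and the median was 35. For the chromosome 7 array, 321 of 740 windows of 3.2 Mb (43.4%) held at most 40 sites, and the median was 50. The density of the chromosome 7 window was thus near the middle of the autosomes. Windows as empty as the other arrays also occurred elsewhere, and stretches of unknown sequence were not taken out of these windows.

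**Figure D3:**
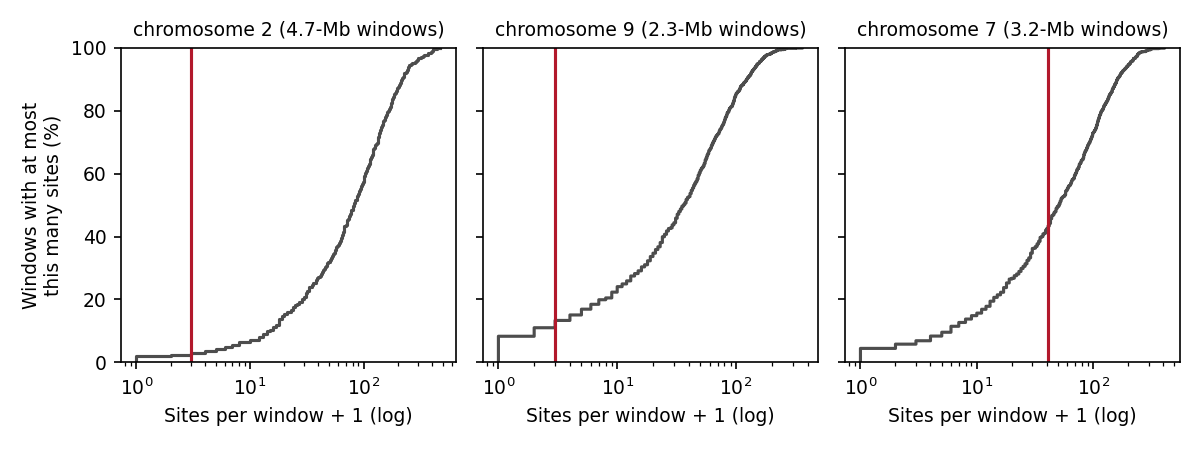
Cumulative share of autosomal windows (vertical axis, %) by the number of sites per window plus 1 (horizontal axis, log scale), for windows as long as each array; the red line marks the array. The array count was matched or undercut by 2.99% of windows for chromosome 2, 13.3% for chromosome 9 and 43.4% for chromosome 7.

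Small tiles gave the same order. Of 47 tiles of 100 kb in the chromosome 2 array, 45 held no site (95.7%, exact interval 85.5 to 99.5%), against 7 of 20 and 4 of 20 in its flanks. In the chromosome 9 array 21 of 23 were empty (91.3%, 72.0 to 98.9%), against 11 of 20 and 7 of 20. Over the autosomes 56.5% of such tiles were empty. The chromosome 7 array, with 18 of 32 empty tiles (56.3%, 37.7 to 73.6%), was at that background. Its flanks had 9 of 20 and 18 of 20 empty. Of the 1-Mb tiles inside the arrays, 2 of 4 were empty on chromosome 2, 1 of 2 on chromosome 9 and 0 of 3 on chromosome 7. The intervals of these shares (6.76 to 93.2%, 1.26 to 98.7% and 0 to 70.8%) all include the 22.2% found over the autosomes. Tiles of this size are thus too few to set the arrays apart from the background.

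The longest empty stretch of the chromosome 2 array ran from 86305025 to the end of the window, over 3.59 Mb or 76.5% of it. It went on beyond the border to 90235095, 3930 kb in all, and was the 38th longest of 52722 gaps between sites on the autosomes and the second longest of chromosome 2. The other empty parts of this window belonged to gaps of 711.3 kb, which began 112.9 kb before the border at 85087107, and of 505.4 kb between the 2 sites. In the chromosome 9 array the longest empty stretch began at 38526760 and reached the end of the window, 1.37 Mb or 59.7% of it. The whole gap of 1695 kb ended at 40222206 and ranked 231st among the autosomal gaps. A gap of 785.3 kb lay between the 2 sites of this array.

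The empty stretches ran past both borders of each array, by less on the side before the window than on the side after it. The last site before the window lay 112.9 kb from the border on chromosome 2 and 134.8 kb on chromosome 9. On chromosome 2 the 500 kb before the window held 21 sites and the first 500 kb inside it held none. After the window, the first site came 335.1 kb beyond the border at 90235096, and the 500 kb that hold it had 16 sites, followed by 35 in the next 500 kb. On chromosome 9 the 500 kb before the window held 20 sites and the first 500 kb inside it 1. After the window the first site came at 322.2 kb, with 5 sites in the first 500 kb and 28 in the next. Both windows thus begin and end inside an empty stretch.

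**Figure D4:**
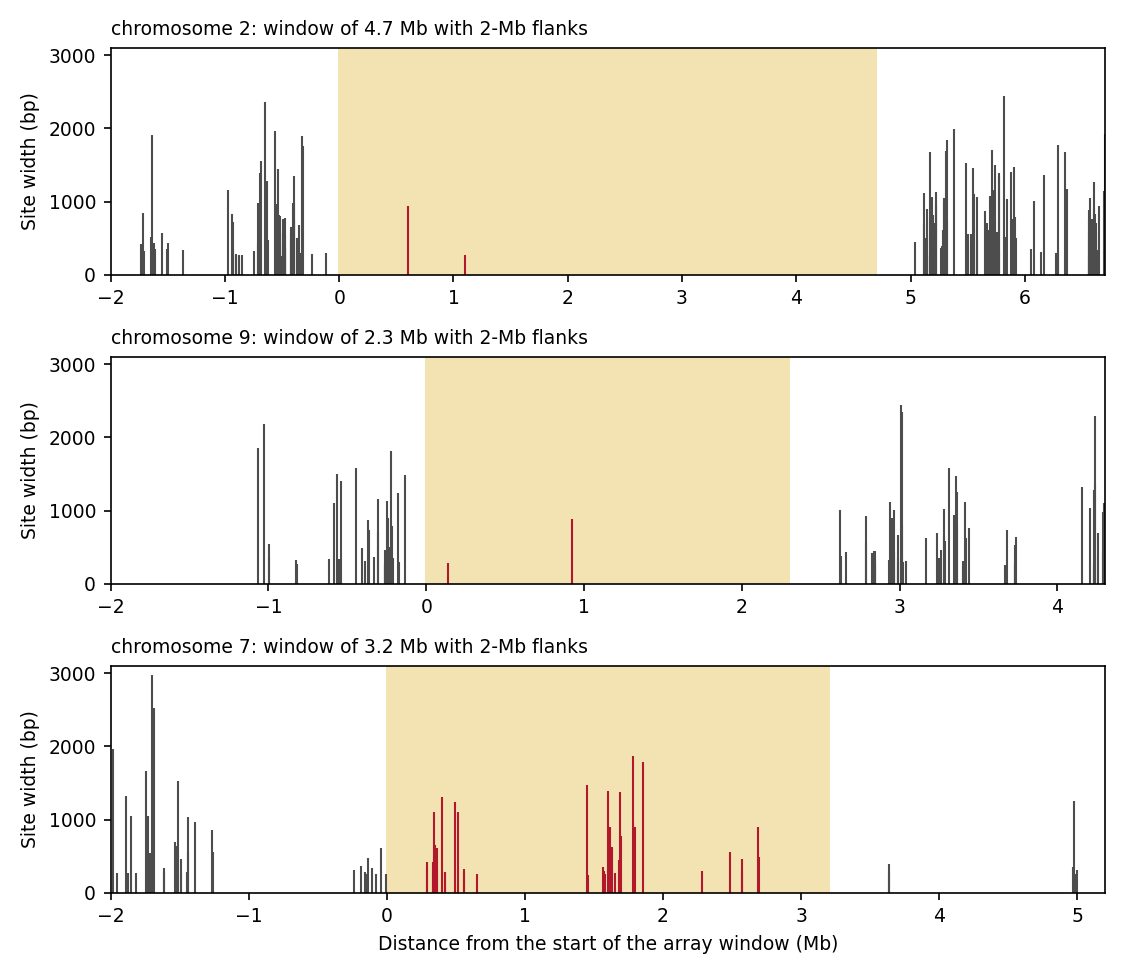
Each vertical line is a DNaseI site, placed by its distance in Mb from the start of the array window (horizontal axis), with its width in bp as height (vertical axis); shading marks the window, red lines its sites and grey lines those of the 2-Mb flanks. The windows of chromosomes 2 and 9 hold 2 sites each, and the 40 of chromosome 7 stand in 3 groups.

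Each of the 4 sites on chromosomes 2 and 9 stood alone. On chromosome 2 they were a site of 938 bp (85798416 to 85799353) and one of 270 bp (86304755 to 86305024). On chromosome 9 they were a site of 282 bp (37740298 to 37740579) and one of 883 bp (38525877 to 38526759). Each array thus had a narrow site, under 400 bp, and a site above the list's median width of 663 bp. The nearest neighbour of any of the 4 was 275.1 kb away or more. No other site lay within 50 kb of any of them, a state shared by 3.53% of all autosomal sites and 2.34% of the flank sites. The narrowest width in the list is 249 bp, so that the 270-bp and 282-bp sites are close to the smallest that was called. What sequence or gene lies at these 4 positions was not analysed here, nor was the input library.

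The 40 sites of the chromosome 7 array fell into 3 groups, divided by every gap of over 250 kb, a limit chosen after seeing the sites. The first group ran from 111392536 to 111751861, 359.3 kb with 18 sites. The second ran from 112547837 to 112960220, 412.4 kb with 16 sites, and the third from 113380088 to 113795542, 415.5 kb with 6 sites. The groups took up 37.1% of the window, and the first and second held 85% of its sites in 0.772 Mb. The remaining 2.01 Mb, or 62.9% of the window, had no site. Its empty parts belonged to gaps of 301.1 kb before the first group, 796 kb after it, 419.9 kb after the second and 942.1 kb after the third. The last of these ran on into the flank and ended at 114737662. The longest stretch inside the window was that of 796 kb, and it ranked 544th among the autosomal gaps. In gene order, the blocks of other genes alternate with runs of receptors in this array. Whether the groups of sites lie on those blocks was not tested, since no mm9 annotation was used here.

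The listed widths and spacings of the sites also varied between the groups. With 18, 16 and 6 sites and no interval computed for a group, whether the groups differ was not tested. In the first, 8 of 18 sites were narrow and none was wider than 1500 bp. The widest was 1306 bp (111501285 to 111502590), followed by 1244 bp (111594220 to 111595463), 1103 bp (111439794 to 111440896) and 1098 bp (111613391 to 111614488). Many sites here came in close pairs, and joining sites at most 1 kb apart turned the 18 into 12 regions. The closest pair was 0.07 kb apart (111444842 to 111445347 and 111445418 to 111445834).

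In the second group no sites were that close, and the 16 remained 16 regions. It held the only sites of the arrays above 1500 bp: the widest member, of 1867 bp (112884337 to 112886203), and one of 1783 bp at its end (112958438 to 112960220). Next were sites of 1467 bp (112547837 to 112549303), 1392 bp (112702073 to 112703464) and 1370 bp (112788466 to 112789835). The group also had the narrowest member, of 249 bp (112560646 to 112560894). Its median width was 767 bp, against 417.5 bp in the first group and 474 bp in the third. The third group was the sparsest, at 14.4 sites per Mb of its own length, and its sites were 301, 556, 460, 298, 903 and 488 bp wide. The first and second had 50.1 and 38.8 per Mb of their own lengths, which begin and end on a site by construction.

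As a set, the members were not clearly narrower than other sites. The median width of the 44 was 474 bp (order-statistic interval 333 to 756), against 610 bp in the flanks (549 to 688) and 663 bp in the whole list (658 to 668). The flanks of chromosome 7 alone had a median of 455 bp (310 to 646), close to the array between them, while those of chromosomes 2 and 9 had 640 bp (561 to 726). Narrow sites were 38.6% of the members (24.4 to 54.5%), 30.8% of the flank sites (25.6 to 36.3%) and 30.5% of the list. Sites wider than 1500 bp were 4.55% of the members (0.555 to 15.5%) and 10.03% of the flank sites (6.87 to 14.0%). The intervals of the 44 members overlap those of the 6 flanks and of the whole list in each of these measures for which one is given. Of the 40 sites on chromosome 7, 14 (35%) had a neighbour within 500 bp, against 31.4% of autosomal sites. A further 4 had none within 50 kb, or 10% (2.79 to 23.7%). The most isolated of them began at 113380088, 204 kb from its nearest neighbour, followed by those at 111751601 with 94.8 kb, 113584352 with 87.9 kb and 112958438 with 57.3 kb. The fifth, at 112751659, had a neighbour at 21.3 kb. After the member of 249 bp, the narrowest on chromosome 7 were those at 111751601 and 112682890 with 261 bp each, at 112751659 with 273 bp and at 111656498 with 277 bp. The sites at 111751601 and 112751659 are on both lists of 5, but only that at 111751601 had no neighbour within 50 kb.

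The sites around the chromosome 7 array were as uneven as those in it. In the flank before it, the 500 kb next to the window held 9 sites of 254 to 606 bp, the next 500 kb none, the third 8 and the fourth 18. The longest empty stretch of that flank was 1.02 Mb (109844394 to 110860738). The beta-globin genes precede the receptor run in gene order, and whether they hold some of these 9 sites was not tested. In the flank after the array, 2 sites stood together at 114737663 to 114738427 and 4 between 116073304 and 116097860, with 1.33 Mb between them. All but 1 of these 6 were narrow, the exception being a site of 1252 bp. In gene order, 43 of the 50 protein-coding genes that follow the array are Olfr genes. How many of them lie in this flank was not tested. The empty stretch of 1.33 Mb is longer than any inside the chromosome 7 window.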

How the data were processed

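DNaseI sites of 1 tumour library were analysed. BWA 0.6.2, SAMtools and build mm9 are named in the submitters' processing notes; how sites were called, at what threshold and with what filters is not given in the sources used here. In the deposited list the authors gave the chromosome with the start and end of every site in 3 columns, without a score or count. Positions are printed counted from 1. Sites were counted by any overlap with a window, and density is sites per Mb. Intervals are exact Poisson for counts, exact conditional binomial for ratios, Clopper-Pearson for shares and order-statistic for medians. Tiled windows began at the first site of each autosome. Narrow means under 400 bp. Genes were named, by order only, from RefSeq GRCm38.p6 tables, 1 sequence a gene. That these sequences run on the gene strand was checked by TATAAA, which occurred 497 times at 20 to 40 bases before the start against 111 times for its complement TTTATA. The members, lists and windows were chosen with earlier results of these data known. By the rule for names, the first and last Olfr gene of each stretch and genes of other families are named in part (some are not reported here), as are all sites of arrays with 30 or fewer and, on chromosome 7, the 5 widest, narrowest and most isolated. Other sites were picked after their values were seen. Counting motifs at gene starts was not planned. For it, TATAAA was added to the planned motifs, the ETS word was shortened and the planned CTCF motif was not counted. The planned placement of genes and motif search in sites need mm9 annotation or sequence and were not run. The ratio and the stretch search were tested on simulated sites of 1 width, placed independently and evenly at random within each region. The listed sites cluster, so that test cannot show how the intervals behave for them. Calculations ran in Python 3.11.15 with scipy 1.17.1, numpy 2.4.6 and pandas 2.3.3, and plots were made with matplotlib 3.10.9.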

Additional observations from a re-analysis of the deposited data

How the results depend on the processing

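Of 59 recomputed values, 54 stayed within the counting interval of the value reported (for an empty stretch, within 1.5 times) and 5 moved by more, all on chromosome 7. With 2 sites in each of the other arrays, their intervals are wide and few changes could leave them. On chromosome 9, lengthened windows gave 1.85 sites per Mb against 0.87, which still counted as within the interval. The ratios of chromosomes 2 and 9 stayed below 1 throughout. That of chromosome 7, whose interval includes 1, fell on the other side of 1 in 1 setting. With flanks of 1 Mb the ratio of array to flanks was 2.27, and with flanks of 5 Mb 0.372, so its direction turned and is not settled. When sites at or below the median width of the list were left out, in place of a stricter threshold by signal, the array had 4.38 sites per Mb and 75% empty 100-kb tiles. Such a cut takes sites from every region, and the ratio to flanks cut in the same way was 1.35. Joining sites at most 1 kb apart raised the median width to 837 bp. For chromosome 2 the ratio ran from 0.00799 (covered bases) to 0.0164 (flanks of 5 Mb), and for chromosome 9 from 0.0254 (windows shortened by 200 kb at each end) to 0.0705 (windows lengthened by 200 kb). The lengthened windows, the division of chromosome 7 and the sequences at gene starts were chosen after seeing the data. Alternatives for genes near sites and for motifs in sites were not run. No paired analysis was possible because there is 1 library. How uniquely reads map within these gene families, and the copy number of the regions, were not analysed here, and the depth behind a site is unknown.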
